A study of Mus musculus with 6 samples.

Results

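Interferon-stimulated genes of brown adipose tissue (BAT) are described here, as a list of 47 genes that were found by their symbol. All 47 were present among the 23282 rows of the count files and each had a single row. Libraries of mRNA 3′ ends (QuantSeq, in which the count of a gene does not grow with its length) came from BAT of 5-week-old male mice of the C57BL/6N strain. There were 3 wild-type (WT) mice and 3 Letmd1 knockout (KO) mice, each sequenced as its own library, and the comparison asks how the BAT transcriptome differs without LETMD1, a protein of the mitochondrial matrix. The KO mice carried a knockout-first allele in every tissue, in which a lacZ and neomycin cassette sits in an intron upstream of the 3′ exons, and the line came from 1 embryonic stem cell clone, so effects of its loss in BAT and in other organs cannot be told apart. No treatment or infection is given in the labels for either genotype.

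Interferons are secreted proteins that cells release when they sense foreign or misplaced nucleic acid. Type I interferons (alpha and beta) bind IFNAR and act through a complex with STAT2 and IRF9 on the interferon-stimulated response element (ISRE), whereas interferon-gamma binds IFNGR and acts on gamma-activated sites (GAS). The genes they raise encode RNA and DNA sensors, enzymes and effectors that block viral replication, GTPases that attack vacuoles, and the immunoproteasome, and macrophages as well as parenchymal cells use them.

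The label of each mouse was first checked by the targeted gene. Letmd1 had 5658, 6490 and 5266 counts in the WT mice and 0, 0 and 1 counts in the KO mice, from reads that lie downstream of the cassette. Each library held between 6669577 and 14574273 counts. Levels are given in CPM, that is counts relative to each library's total after TMM scaling. A gene with no count may still have had a level of up to 3 counts, which is 0.176 to 0.397 CPM depending on the mouse and covers counting error only. Differences are log2 fold changes of KO over WT, given with their standard error (SE), from a quasi-likelihood fit in edgeR, and p-values were adjusted by Benjamini and Hochberg's method over the 12995 rows that passed the filter on low counts. The 3 mice of a genotype are separate animals, and p-values measure the spread between them. Brown adipocyte markers were present in every mouse and summed to between 39340 and 44790 CPM in WT mice and between 11820 and 15700 CPM in KO mice.

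Most interferon-stimulated genes were higher in Letmd1 KO BAT. All 47 passed the filter, and 37 were higher, 1 was lower and 9 did not pass an adjusted p of 0.05. Over all rows tested, 23.7% were higher and 22.3% were lower. The median log2 fold change was 1.17 over the 47 genes and 0.03 over all rows. In 37 of the 47, all KO mice lay above all WT mice, an order that 30.1% of all rows had, and in 1 gene all KO mice lay below, an order that 27.2% of all rows had. A rise of at least 2-fold that passed the test was seen in 30 genes (63.8%, against 14.6% of all rows), and a rise of at least 4-fold in 10 (21.3%, against 6.60% of all rows). Among the latter, Oas1a, Oasl1, Oas3, Mx1, Mx2 and Zbp1 had no more than 11 counts in any WT mouse. Genes this low in WT can pass the filter through the KO mice alone, and the size of their fold rests on few WT counts. The 2-5A median given below was 2.015 under quantile normalization with limma. By role, the medians of the log2 fold changes were 2.71 in the 2-5A synthetase family, 1.71 for IFIT, MX and viperin effectors, 1.33 for ISG15, ubiquitin and ADP-ribose modifiers, 1.23 for the immunoproteasome and peptide transport, 1.08 for the sensors, 0.92 for membrane and other induced proteins, 0.92 for transcription factors and 0.64 for interferon-gamma GTPases.

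**Figure D1:**
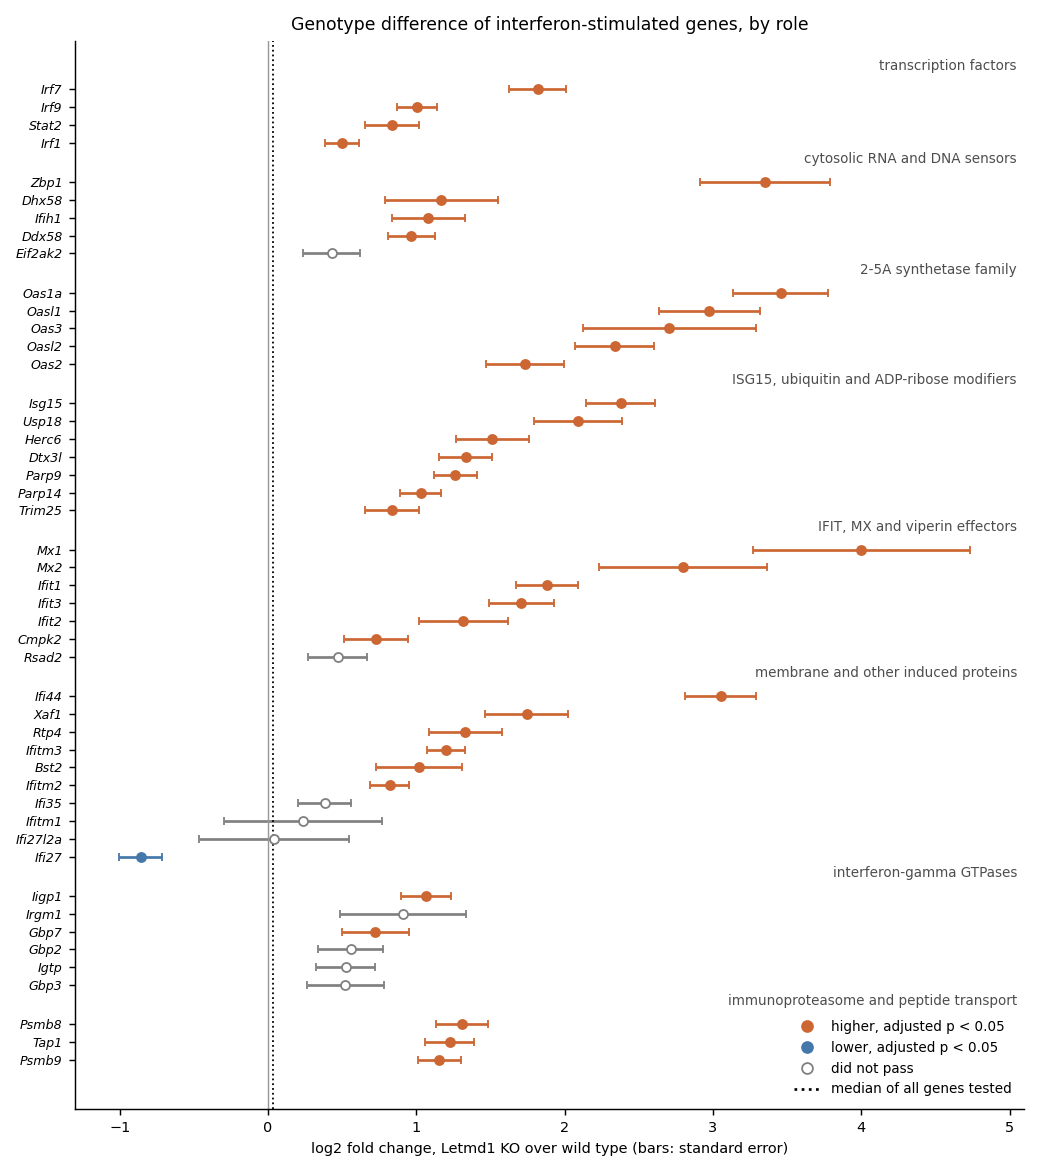
Log2 fold change (KO over WT, x axis) of each interferon-stimulated gene, grouped by role, with bars for the standard error, n = 3 mice per genotype. Filled points passed an adjusted p of 0.05. The 37 genes that were higher lie between 0.50 and 4.001, Ifi27 lies at -0.86, and 4 of the 9 open points are interferon-gamma GTPases. The dotted line is the median of all rows tested.

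Macrophage markers moved with these genes. Of 14 markers listed, 13 were tested and all 13 were higher in KO BAT, and their summed level was 244.8, 187.5 and 251.3 CPM in the WT mice and 1620, 3314 and 1385 CPM in the KO mice. None of the 14 was at 0 in all mice. Of the dendritic cell markers 5 of 7 tested were higher (14.4 to 22.0 CPM in WT, 38.7 to 46.9 CPM in KO), and that list holds Bst2, which is also an interferon-stimulated gene. Among T and NK cell markers 3 of 5 tested were higher (5.51 to 9.77 CPM in WT, 12.5 to 21.8 CPM in KO), and among monocyte and neutrophil markers 3 of 6 (18.3 to 64.6 CPM in WT, 98.4 to 135.0 CPM in KO). The higher ones were Cd4, Nkg7 and Klrb1c in the first list and Ccr2, Itgam and Lcn2 in the second. Cd3d, Gzma, Ly6c2, S100a8 and S100a9 did not pass, and Cd3e, Cd3g, Cd8a, Ncr1 and Csf3r had too few counts to be tested. Jchain, the only one of the B and plasma cell markers tested, was higher. Of 7 endothelial markers 1 was higher and 3 were lower, of 9 skeletal muscle markers 2 were higher (80.9, 384.7 and 95.3 CPM summed in the WT mice, 314.8, 261.6 and 905.8 CPM in the KO mice), and none of 5 erythroid markers passed. Of 9 brown adipocyte markers, 8 were lower. The part of these cell types in the rise was not tested, and in whole tissue more cells of a type and more RNA per cell cannot be told apart.

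Within the KO group the mice kept a common order. KO replicate 2 had the highest level for 38 of the 47 genes and KO replicate 3, which had the highest summed muscle markers, the lowest for 37. How many of all rows have this order was not counted, so it is not shown to be particular to these genes. The part of muscle RNA in this order was not tested. Relative to the WT mean of each gene, the median level over the 47 genes was 0.94, 0.94 and 1.14 in the WT mice and 2.25, 2.65 and 1.95 in the KO mice. The same median over the 13 tested macrophage markers was 1.04, 0.83 and 1.04 in the WT mice and 5.5, 7.74 and 5.34 in the KO mice, so KO replicate 2 was also highest for the markers. KO replicate 2 had the fewest counts (6669577) and KO replicate 3 the most (14574273). Without KO replicate 2, 34 of the 47 genes were higher. Among WT mice, replicate 3 was highest for 30 of the 47.

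**Figure D2:**
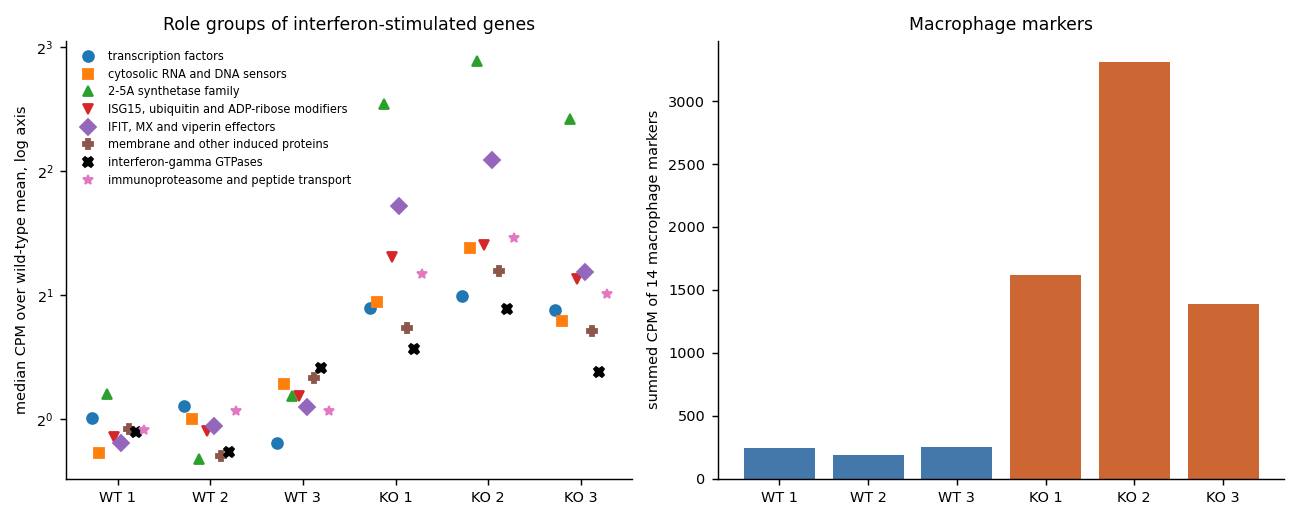
Left, median level of each role group in each mouse, as CPM over the WT mean of the gene on a log2 axis. Right, summed CPM of 14 macrophage markers in each mouse. The 2-5A synthetase family lies at 5.82, 7.42 and 5.35 in the KO mice and the interferon-gamma GTPases at 1.48, 1.85 and 1.30, and KO replicate 2 is highest in both panels.

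Promoter sequences were searched for the cores of both elements. RefSeq (GRCm38.p6) windows of 300 bases, from 250 before to 50 after the transcript start, were found for 35 of the 47 genes. The ISRE core searched was GAAANNGAAA on either strand, so TTTCNNTTTC marks it on the other strand, and overlapping matches were counted. It was found in 18 of the 35 windows (51.4%), against 3.99% of 27025 genes with a window. The GAS core TTCNNNGAA, which reads the same on both strands, was found in 10 of the 35 (28.6%), against 9.55% of genes. A match describes these letters in these windows and is not a measured site. By role, the ISRE core was in 5 of 5 windows of interferon-gamma GTPases, 3 of 3 of sensors, 3 of 5 of IFIT, MX and viperin effectors, 2 of 4 of the 2-5A synthetase family, 3 of 7 of membrane and other proteins, 1 of 4 of transcription factors, 1 of 4 of the ISG15 group and 0 of 3 of the immunoproteasome group.

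Sequences of 4 effector genes that rose, of the 3 GBP genes, of which 1 passed the test, and of Irf1 are shown so that their matches can be compared, with up to 12 bases on either side, 5′ to 3′ on the strand of the gene, with the bases of the matches in capitals. Isg15 (chr4:156200863-156200908, minus strand) holds 3 overlapping ISRE cores from 90 to 45 bases before the start, flanks included. Ifit1 (chr19:34640773-34640825, plus strand) and Ifit3 (chr19:34583361-34583428, plus strand) hold 2 each. Oas1a (chr5:120907526-120907557, minus strand) holds 2 that overlap and end close to the start. Gbp2 (chr3:142620592-142620625, plus strand), Gbp7 (chr3:142530271-142530304, plus strand) and Gbp3 (chr3:142559987-142560026, plus strand) hold 1, 1 and 2. The window of Irf1 (chr11:53769912-53769944, plus strand) has no ISRE core and a GAS core, in capitals. Outside the stretches shown, the windows of Gbp7 and Oas1a also hold GAS cores, which begin 106 and 87 bases before the start in Gbp7 and 98 bases before it in Oas1a.
Isg15: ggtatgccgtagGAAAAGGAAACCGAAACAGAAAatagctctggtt
Ifit1: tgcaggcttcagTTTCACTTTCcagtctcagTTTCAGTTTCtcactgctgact
Ifit3: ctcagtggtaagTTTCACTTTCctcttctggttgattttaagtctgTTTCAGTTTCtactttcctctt
Oas1a: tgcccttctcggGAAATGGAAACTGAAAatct
Gbp2: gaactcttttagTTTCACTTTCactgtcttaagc
Gbp7: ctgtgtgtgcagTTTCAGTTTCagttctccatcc
Gbp3: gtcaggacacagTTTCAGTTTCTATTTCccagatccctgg
Irf1: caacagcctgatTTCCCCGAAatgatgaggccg

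Among the 35 genes with a window, a match did not go with a larger rise. Genes without a window, whose log2 fold changes ran from -0.86 (Ifi27) to 4.001 (Mx1), are not in this comparison. All 5 windows of interferon-gamma GTPases held an ISRE core, and that role group had the smallest median, 0.64, so match and role are mixed here. Of the 18 interferon-stimulated genes with an ISRE core 12 were higher with a median log2 fold change of 0.94, and of the 17 without one 15 were higher with a median of 1.31. Outside the 47, 36.2% of 354 tested genes with an ISRE core were higher in KO BAT, and 22.5% of 9419 without one. For the GAS core these shares were 23.5% of 796 and 23.0% of 8977.

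**Figure D3:**
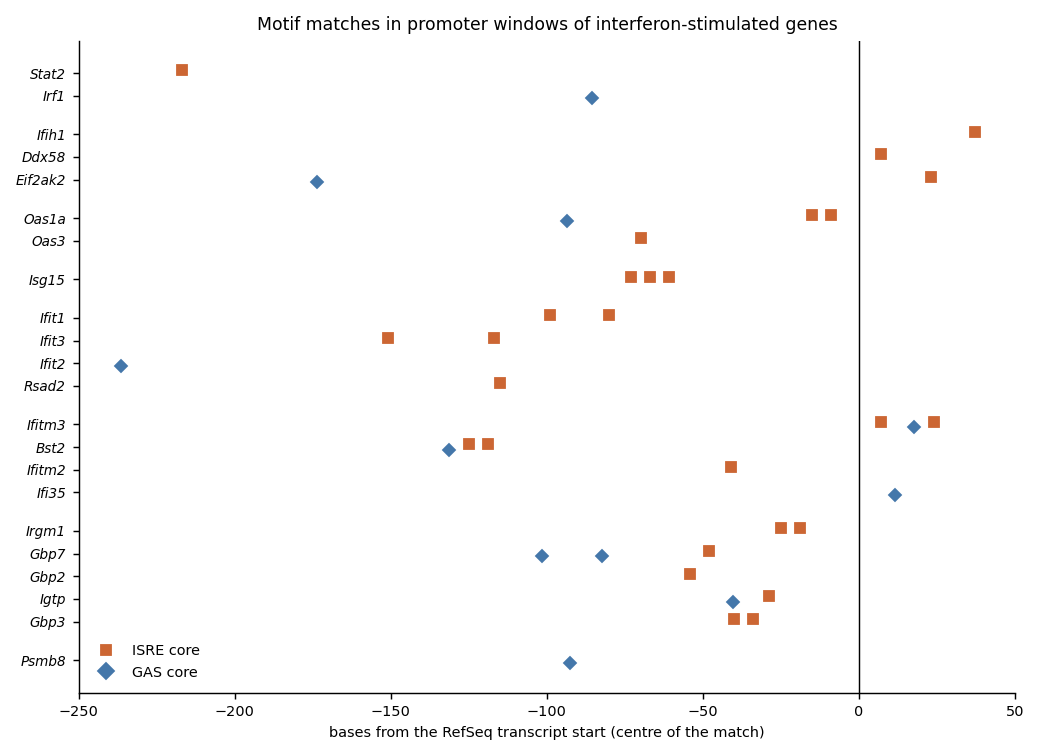
Position of each ISRE core (squares) and GAS core (diamonds) relative to the RefSeq transcript start (x axis, bases) for interferon-stimulated genes with at least 1 match, ordered by role. ISRE cores are in the windows of 18 genes and GAS cores in those of 10, and the ISRE cores of the GTPases begin between 59 and 24 bases before the start.

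The transcription factors of the response were all higher, 4 of 4. Irf7, the factor that amplifies type I interferon production, had 12.2, 11.97 and 8.34 CPM in the WT mice and 36.1, 45.7 and 33.7 CPM in the KO mice. The genotypes did not overlap, and the log2 fold change was 1.82 (SE 0.19, adjusted p = 8.35e-05 from edgeR). Irf9, the DNA-binding partner of STAT2, was at 36.6, 32.7 and 43.4 CPM in WT and 71.3, 81.3 and 73.1 CPM in KO BAT, again without overlap, a log2 fold change of 1.003 (SE 0.13). Irf1, the factor that interferon-gamma raises early, had the smallest rise, from 39.4, 43.9 and 40.6 CPM to 57.1, 63.2 and 55.3 CPM, a log2 fold change of 0.50 (SE 0.12, adjusted p = 0.00658 from edgeR). Stat2 rose by 0.84 on the log2 scale.

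Of the 5 cytosolic sensors, 4 were higher. Zbp1, which binds left-handed nucleic acid and starts necroptosis, had 0.861, 1.17 and 0.261 CPM in the WT mice and 7.46, 10.4 and 6.64 CPM in the KO mice. The WT libraries held between 2 and 11 counts of it and all KO mice lay above them, a 10.2-fold rise (log2 fold change 3.35, SE 0.44, adjusted p = 0.000287 from edgeR). The RNA helicases rose less, by 1.17 for Dhx58 (LGP2), 1.08 for Ifih1 (MDA5) and 0.97 for Ddx58 (RIG-I) on the log2 scale. Ddx58 was at 20.5, 23.4 and 29.9 CPM in WT and 45.2, 52.1 and 46.9 CPM in KO BAT, with no overlap. Dhx58 lost its call when either WT replicate 1, WT replicate 2, KO replicate 1 or KO replicate 2 was left out, with an adjusted p of up to 0.109 from edgeR. It was also lost under quantile normalization with limma, where 3 of the 5 sensors were higher. Eif2ak2, the kinase PKR that stops translation on double-stranded RNA, was at 11.5, 14.7 and 15.5 CPM in WT and 21.5, 14.9 and 19.6 CPM in KO BAT. KO replicate 2 lay within the WT values and the difference did not pass (log2 fold change 0.43, SE 0.19, adjusted p = 0.0978 from edgeR). Eif2ak2 did pass as higher with library size alone and without KO replicate 2.

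The 2-5A synthetase family, whose active members make 2′-5′ oligoadenylate (2-5A) on double-stranded RNA, rose as a whole, 5 of 5. Oas1a was at 1.18, 0.953 and 1.04 CPM in WT mice and 12.4, 14.7 and 8.52 CPM in KO mice. This 11.0-fold difference (log2 fold change 3.46, SE 0.32, adjusted p = 4.09e-05 from edgeR) left a wide gap between the genotypes. Oas2 had the smallest rise of the family, from 3.02, 2.33 and 2.08 CPM to 8.45, 8.86 and 7.64 CPM, without overlap (log2 fold change 1.73, SE 0.27). Oasl1, Oas3 and Oasl2 rose by 2.98, 2.71 and 2.34 on the log2 scale, and Oas3 was at no more than 0.651 CPM in any WT mouse. Of the 75-base words in the last 500 bases of the Oas1a transcripts, 46.0% also occur in Oas1g, and since multiple alignments were counted, reads of the pair can be shared. Oas1g was itself higher (log2 fold change 2.89). Pde12, which degrades 2-5A, was at 12.9, 20.4 and 16.3 CPM in WT and 11.4, 11.9 and 9.46 CPM in KO BAT, lower by the test (log2 fold change -0.61, adjusted p = 0.0401 from edgeR), and it did not pass with library size alone (-0.19, adjusted p = 0.470 from edgeR), nor without WT replicate 2, WT replicate 3, KO replicate 1 or KO replicate 3. Abce1, a ribosome recycling factor, had 52.3, 50.7 and 61.1 CPM in WT and 61.2, 50.2 and 52.3 CPM in KO mice, with overlap.

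ISG15, its protease and the ubiquitin and ADP-ribose enzymes of the response rose in 7 of 7 genes. Isg15, a ubiquitin-like protein that is joined to other proteins, had 13.6, 12.8 and 17.7 CPM in WT and 72.3, 101 and 55.7 CPM in KO BAT. The lowest KO mouse was far above the highest WT mouse (log2 fold change 2.38, SE 0.23, adjusted p = 5.44e-05 from edgeR). Usp18, which removes ISG15 and also dampens IFNAR signalling, and Herc6, the mouse ISG15 ligase, rose by 2.09 and 1.51 on the log2 scale, and Parp14, an ADP-ribosyltransferase, by 1.03. Parp9 was at 21.3, 21.6 and 26.2 CPM in WT and 57.2, 60.7 and 48.2 CPM in KO BAT, and its partner Dtx3l rose by 1.33 on the log2 scale, close to the 1.26 of Parp9. Trim25, the ubiquitin ligase of the RIG-I pathway, had the smallest rise of the group. It was at 68.8, 61.2 and 39.9 CPM in WT mice, with replicate 3 lower than the others, and at 95.2, 108 and 99.8 CPM in KO mice (log2 fold change 0.83, SE 0.18, adjusted p = 0.00497 from edgeR).

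Of the 7 IFIT, MX and viperin effectors 6 were higher. Mx1, a dynamin-like GTPase that traps viral ribonucleoprotein and whose allele is defective in most inbred strains, had the largest log2 fold change of the 47 genes, 4.001 (SE 0.73, adjusted p = 0.00189 from edgeR). Its level was 0, 0.847 and 0.521 CPM in the WT mice and 8.23, 11.1 and 3.47 CPM in the KO mice, so the size of the fold rests on few WT counts although the genotypes did not overlap. Ifit1, which binds RNA caps that lack a methyl group, rose from 13.6, 15.7 and 19.7 CPM to 64.0, 71.2 and 45.0 CPM, and Ifit3, its partner, from 16.8, 14.9 and 15.1 CPM to 51.4, 66.6 and 35.6 CPM. Their log2 fold changes were 1.88 (SE 0.21) and 1.71 (SE 0.22), with no overlap in either, and 9.86% of the words in the 3′ end of Ifit3 also occur in Ifit3b, so reads of that pair can be shared. Mx2 and Ifit2 rose by 2.80 and 1.32 on the log2 scale. Cmpk2, a mitochondrial nucleotide kinase, lies next to Rsad2 on chromosome 12, and these had the smallest changes of the group. Cmpk2 was at 9.26, 9.85 and 6.77 CPM in WT and 13.4, 17.1 and 12.8 CPM in KO mice (log2 fold change 0.73, SE 0.22, adjusted p = 0.0209 from edgeR), a call that was lost without WT replicate 3 or KO replicate 2 (adjusted p up to 0.0648 from edgeR) and under quantile normalization with limma (adjusted p = 0.0825). Rsad2, which encodes viperin, was at 96.5, 70.2 and 69.7 CPM in WT and 118, 130.5 and 79.5 CPM in KO BAT. KO replicate 3 fell within the WT values and Rsad2 did not pass (log2 fold change 0.47, SE 0.20, adjusted p = 0.0800 from edgeR), though it did with the replicate number as a block, with quantile normalization, with library size alone and without WT replicate 1 or KO replicate 3.

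**Figure D4:**
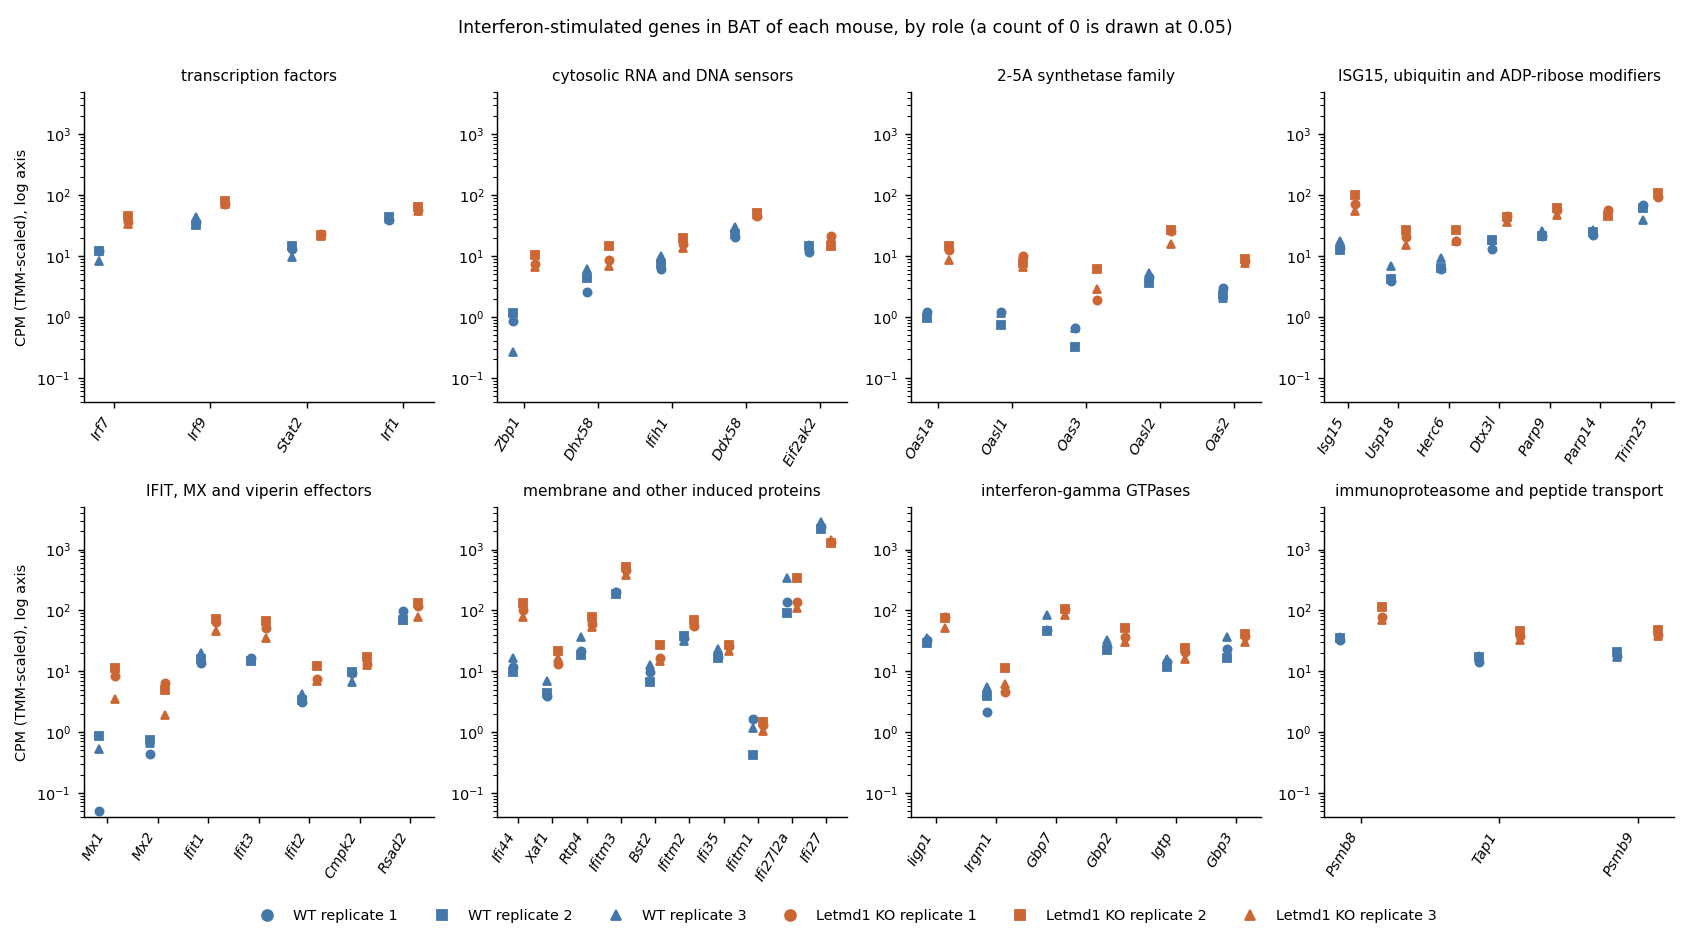
CPM of each interferon-stimulated gene in each mouse on a log axis, 1 panel per role, WT in blue and KO in orange, with a marker shape per replicate. The 2-5A synthetases and ISG15 group have no overlap between genotypes, whereas 4 of 6 interferon-gamma GTPases do, and Ifi27 is the only gene with all KO mice below all WT mice.

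Membrane and other induced proteins were the most mixed, with 6 higher, 1 lower and 3 of the 10 that did not pass. Ifi44, a cytoplasmic protein, was at 11.6, 9.64 and 16.3 CPM in WT and 102, 131 and 77.7 CPM in KO BAT. It had the smallest adjusted p of the 47 genes (log2 fold change 3.05, SE 0.24, adjusted p = 1.97e-05 from edgeR). Rtp4 rose from 21.5, 18.9 and 36.2 CPM to 60.4, 78.1 and 53.6 CPM (log2 fold change 1.33, SE 0.25), and Xaf1 and Bst2 by 1.75 and 1.02 on the log2 scale. Bst2, the tetherin that holds budding virus at the membrane, lost its call without WT replicate 1, WT replicate 2 or KO replicate 2 (adjusted p up to 0.0643 from edgeR).

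The IFITM genes, which block viral fusion in endosomes, lie together on chromosome 7 and differed among themselves. Ifitm3 was at 204, 188 and 203 CPM in WT and 468, 517 and 383 CPM in KO BAT (log2 fold change 1.2, SE 0.13, adjusted p = 9.84e-05 from edgeR), with no overlap. Ifitm2 was at 35.8, 37.9 and 31.5 CPM in WT and 56.5, 69.5 and 60.1 CPM in KO BAT (log2 fold change 0.82, SE 0.13, adjusted p = 0.000907 from edgeR), and 32.6% of the words in its 3′ end occur in other genes. Ifitm1 was near the detection limit, at 1.61, 0.424 and 1.17 CPM in WT and 1.32, 1.45 and 1.06 CPM in KO mice, with overlap (log2 fold change 0.23, SE 0.53, adjusted p = 0.749 from edgeR), and its sign turned under quantile normalization and without WT replicate 2.

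Ifi27 and its neighbour Ifi27l2a were the exceptions. Ifi27, a protein of the mitochondrial and nuclear membranes, was at 2371, 2176 and 2836 CPM in WT and 1342, 1269 and 1465 CPM in KO BAT. All KO mice lay below all WT mice (log2 fold change -0.86, SE 0.15, adjusted p = 0.00127 from edgeR). The call was lost under quantile normalization with limma (log2 fold change -0.04, adjusted p = 0.850), and it was -0.43 and still lower with library size alone. Because of its level, the 47 genes summed to 3468, 3179 and 4222 CPM in WT and 3639, 4108 and 3389 CPM in KO BAT, ranges that overlap, whereas without Ifi27 the other 46 genes summed to 1097, 1003 and 1385 CPM and to 2297, 2839 and 1924 CPM, ranges that do not. Ifi27l2a had 138, 90.6 and 335 CPM in WT and 135, 335 and 111 CPM in KO mice. WT replicate 3 and KO replicate 2 stood well above the rest, and there was no difference that passed (log2 fold change 0.04, SE 0.51, adjusted p = 0.952 from edgeR). Ifi35, which binds NMI, was at 17.3, 16.6 and 23.4 CPM in WT and 26.2, 27.2 and 21.4 CPM in KO BAT, overlapped through KO replicate 3 and WT replicate 3, and did not pass (log2 fold change 0.38, SE 0.18, adjusted p = 0.107 from edgeR). Ifi35 did pass as higher with library size alone and without WT replicate 3.

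The interferon-gamma GTPases, which coat and break up vacuoles that hold pathogens, had a median log2 fold change of 0.64, the smallest of the role groups in the fit of all mice, and 2 of 6 were higher. Without WT replicate 3 their median was 0.95, above the 0.89 of the transcription factors. Iigp1 was at 32.8, 29.5 and 35.2 CPM in WT and 77.6, 75.1 and 51.8 CPM in KO BAT, with no overlap (log2 fold change 1.07, SE 0.17, adjusted p = 0.000881 from edgeR). Gbp7 passed with overlapping values, at 48.6, 46.0 and 85.7 CPM in WT and 107, 106 and 84.3 CPM in KO mice (log2 fold change 0.72, SE 0.23, adjusted p = 0.0269 from edgeR). WT replicate 3 was as high as KO replicate 3. The call of Gbp7 was lost without WT replicate 1, WT replicate 2, KO replicate 1 or KO replicate 2 (adjusted p up to 0.103 from edgeR).

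The remaining 4 GTPases did not pass. Irgm1, which directs the other IRG proteins, was at 2.15, 3.92 and 5.60 CPM in WT and 4.61, 11.1 and 6.29 CPM in KO mice (log2 fold change 0.91, SE 0.42, adjusted p = 0.107 from edgeR). Gbp2 was at 25.3, 22.2 and 33.0 CPM in WT and 36.1, 52.0 and 30.8 CPM in KO mice (log2 fold change 0.56, SE 0.22, adjusted p = 0.0635 from edgeR). In both genes WT replicate 3 lay above the lowest KO mouse. Gbp3 was at 23.3, 16.3 and 35.9 CPM in WT and 37.5, 40.6 and 30.1 CPM in KO mice, with the same overlap (log2 fold change 0.52, SE 0.26, adjusted p = 0.129 from edgeR). Igtp (IRGM3) was at 14.3, 11.7 and 16.0 CPM in WT and 20.6, 23.8 and 16.1 CPM in KO mice, so that the lowest KO mouse lay just above the highest WT mouse (log2 fold change 0.52, SE 0.20, adjusted p = 0.0547 from edgeR).

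The count of GTPases called higher moved with the mice used. Without WT replicate 3 it was 6 of 6 and without KO replicate 3 it was 4, whereas it was 1 when any other mouse was left out. It was 6 with library size alone. Among 10 other GBP and IRG genes that were tested, 3 were higher, with a median log2 fold change of 0.36. Ifi47 led them, at 6.68, 4.34 and 6.90 CPM in WT and 19.5, 32.2 and 15.6 CPM in KO mice (log2 fold change 1.90, SE 0.31, adjusted p = 0.000916 from edgeR), and Gbp9 had the smallest change, at 4.41, 2.54 and 4.56 CPM in WT and 4.17, 5.02 and 3.82 CPM in KO mice. T and NK cells are known sources of interferon-gamma, and Ifng itself had 0 counts in every mouse but KO replicate 2, which had 1.

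The immunoproteasome subunits and the peptide transporter TAP1, which prepare peptides for MHC class I, were higher in 3 of 3 genes and lie within 19.5 kb of each other on chromosome 17. Psmb8 (LMP7) was at 33.0, 35.3 and 36.9 CPM in WT and 78.9, 112 and 70.4 CPM in KO BAT (log2 fold change 1.31, SE 0.17, adjusted p = 0.000308 from edgeR). Psmb9 (LMP2) was at 17.9, 20.5 and 17.3 CPM in WT and 39.1, 47.5 and 38.0 CPM in KO BAT (log2 fold change 1.16, SE 0.15, adjusted p = 0.000237 from edgeR), and Tap1 rose by 1.23 on the log2 scale. None of these 3 overlapped between genotypes.

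None of the constitutive subunits Psmb5, Psmb6 and Psmb7 was called higher. Psmb8 replaces Psmb5 and Psmb9 replaces Psmb6. Psmb5 and Psmb6 had log2 fold changes of 0.16 and -0.06 and did not pass, though Psmb5 passed as higher with library size alone and with quantile normalization and Psmb6 with library size alone. Psmb7 was at 200.1, 229.8 and 215 CPM in WT and 132.5, 163.5 and 161 CPM in KO BAT (log2 fold change -0.50, SE 0.12, adjusted p = 0.00761 from edgeR), a call that neither scaling by library size alone nor quantile normalization gave. Counts of Psmb8 were 18.8%, 20% and 20.1% of those of Psmb5 in the WT mice and 40.7%, 54.9% and 35.5% in the KO mice. Counts of Psmb9 were 10.7%, 12.2% and 11.7% of those of Psmb6 in the WT mice and 24.7%, 30.7% and 25.4% in the KO mice. These ratios, which do not depend on library scaling, rose 2.19-fold and 2.32-fold with no overlap, and a two-sided exact permutation test gave p = 0.1 for each of the 2 ratios, the smallest value that 3 mice against 3 can give, and the same after adjustment over both. The inducible Psmb10 and the second transporter subunit Tap2, named after their values were seen, had log2 fold changes of 0.18 and -0.23 and did not pass. B2m, the light chain of MHC class I, was higher, at 933.5, 932 and 1058 CPM in WT and 2479, 4228 and 2753 CPM in KO BAT (log2 fold change 1.69, SE 0.21, adjusted p = 0.000195 from edgeR).

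**Figure D5:**
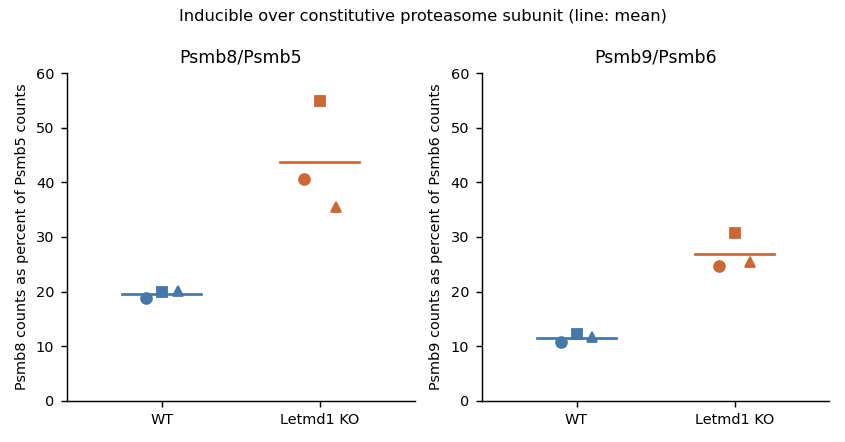
Counts of the inducible proteasome subunit as percent of the constitutive subunit that it replaces, per mouse (circle, square and triangle for replicates 1, 2 and 3) with the mean as a line. Psmb8 over Psmb5 lies between 18.8% and 20.1% in WT and between 35.5% and 54.9% in KO mice, and Psmb9 over Psmb6 between 10.7% and 12.2% and between 24.7% and 30.7%.

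Interferon transcripts themselves were at or near 0. Of 21 interferon genes in the files, 19 had no count in any mouse, Ifnk had 1 count in WT replicate 3 and Ifng 1 count in KO replicate 2, so none was tested. A count of 0 in a mouse allows a level of up to 0.176 to 0.397 CPM, depending on the mouse. Of 61 other genes of the pathway that were tested, over all lists, 24 were higher, 5 were lower and 32 did not pass.

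Among 5 receptor chains tested, 1 was higher and 1 lower. Ifngr2, the signalling chain for interferon-gamma, was at 14.1, 13.3 and 9.12 CPM in WT and 30.1, 29.5 and 32.1 CPM in KO BAT (log2 fold change 1.32, SE 0.18, adjusted p = 0.00034 from edgeR). Ifnar2, the chain of the type I receptor that binds with high affinity, moved the other way, from 197, 174 and 234 CPM to 78.9, 102 and 82.2 CPM (log2 fold change -1.20, SE 0.15, adjusted p = 0.000192 from edgeR). Neither overlapped, and both kept their call under every alternative listed in the methods. Ifnar1, the other chain of that receptor, had a log2 fold change of 0.03 and did not pass. Among 10 kinases and other factors 5 were higher. Irf5, a factor of myeloid cells, was at 1.29, 1.27 and 2.21 CPM in WT and 11.2, 15.6 and 16.0 CPM in KO mice (log2 fold change 3.18, SE 0.30), and Irf2, which competes with Irf1, was at 61.2, 65.0 and 62.8 CPM in WT and 63.7, 67.5 and 56.8 CPM in KO mice. Of 7 negative regulators 3 were higher and 1 lower. Ptpn6, the phosphatase SHP-1 of blood cells, rose from 1.94, 1.27 and 2.34 CPM to 18.0, 22.5 and 16.9 CPM (log2 fold change 3.37, SE 0.27), and Ptpn11, the related SHP-2 of most tissues, was at 175, 186 and 156 CPM in WT and 134, 121 and 135 CPM in KO mice. The lower call of Ptpn11 (log2 fold change -0.41) turned to 0.01 with library size alone and was lost, and it was also lost under quantile normalization with limma (log2 fold change -0.21, adjusted p = 0.149) and without WT replicate 2.

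Of 10 other sensors, adaptors and kinases of nucleic acid sensing that were tested, 5 were higher and 1 was lower. Tlr7, the endosomal receptor for single-stranded RNA of myeloid cells, was at 2.05, 1.69 and 2.34 CPM in WT and 11.3, 14.9 and 11.0 CPM in KO BAT (log2 fold change 2.61, SE 0.26, adjusted p = 6.29e-05 from edgeR). Mavs, the adaptor of RIG-I and MDA5 on the outer mitochondrial membrane, was at 101, 117 and 122.9 CPM in WT and 43.9, 39.0 and 45.0 CPM in KO BAT. It was lower without overlap (log2 fold change -1.41, SE 0.12, adjusted p = 2.53e-05 from edgeR) under every alternative, while the helicases that signal through it were higher. Close paralogs of the 47 genes were higher in 5 of 7 tested. Ifit1bl2 had 0, 0 and 1 counts in WT mice and 10, 16 and 44 counts in KO mice (adjusted p = 0.0012 from edgeR), and Oas1c, at 0.538, 1.06 and 3.39 CPM in WT and 1.43, 1.59 and 1.70 CPM in KO mice, did not pass.

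Interferon-stimulated genes that neighbour each other in the genome (GRCm38) formed 10 groups, to be read against the 37 of 47 that were higher in all. Ifit2, Ifit3 and Ifit1 (chr19:34550694-34650009) were higher in 3 of 3, Oas2, Oas3 and Oas1a (chr5:120730333-120907521) in 3 of 3, Parp14, Dtx3l and Parp9 (chr16:35832874-35972605) in 3 of 3, Mx1 and Mx2 (chr16:97447035-97560900) in 2 of 2, and Oasl2 and Oasl1 (chr5:114896936-114937915) in 2 of 2. The range of log2 fold change within a group was narrow in the Parp group, from 1.03 to 1.33, and wide in the Oas group, from 1.73 to 3.46. In the Gbp group (chr3:142530342-142638008) 1 of 3 was higher and the log2 fold changes ranged from 0.52 to 0.72. Ifi27 and Ifi27l2a (chr12:103434211-103443680) were higher in 0 of 2, Rsad2 and Cmpk2 (chr12:26442746-26479837) in 1 of 2, Ifitm2, Ifitm1, Ifitm3 and Irf7 (chr7:140954837-141266481) in 3 of 4, and Psmb9, Tap1 and Psmb8 (chr17:34181987-34201454) in 3 of 3.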

How the data were processed

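Reads (single-end, 75 bases) were aligned by the authors with Bowtie2, and bedtools gave the number of unique plus multiple alignments of each gene (mm10, from the submitters' processing notes). The authors deposited these counts as whole numbers, 1 file per mouse and not normalized. Use of strand is not given in the sources used here. Samples were grouped by the genotype label. Rows with a shared symbol were kept apart (35 symbols, none of the 47 genes). The method of the study names quantile normalization, which is an alternative here because the test was run on counts.

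The tools were R 4.3.3, edgeR 4.0.16 (TMM, quasi-likelihood test, threshold 0.05, and its default filter, in which the smallest count is 10 and the smallest total 15), limma 3.58.1 and DESeq2 1.42.0. The test covered 12995 of 23282 rows, and 5588 rows were at 0 in all mice. Totals per mouse ranged from 6669577 to 14574273 counts and TMM factors from 0.852 to 0.887 in WT and from 1.13 to 1.17 in KO mice. Mice of a genotype differed by more than sampling noise, so none was counted as a repeat. On simulated counts for 12995 genes, edgeR recovered 52 of 100 genes changed 2-fold and 90 of 100 changed 4-fold, with 13 calls among 12795 unchanged genes.

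The 47 genes, role groups, pathway lists and marker lists were chosen with earlier results of these data known. Values of each mouse are given for the largest and smallest called change in each role group, genes that did not pass or were lower, genes with a mean of at least 50 CPM in either genotype, and the extremes of each pathway list, or all genes of lists with fewer than 4 tested. Promoter windows came from RefSeq GRCm38.p6, and gene positions and 3′ ends from GENCODE vM21 on GRCm38.

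Alternatives were library size alone, quantile normalization of log2 CPM (prior count 2) with limma, DESeq2, no filter, a mean of at least 20 counts, the replicate number as a block, summed rows of a symbol, a pseudocount of 1 for the ratios and leaving out each mouse. Some pathway genes are not reported here by name.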

Additional observations from a re-analysis of the deposited data

How the results depend on the processing

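Of the 47 genes, between 34 and 44 were higher under every alternative, against 37 in the test as reported, and 1 was lower except under quantile normalization with limma, where 0 were. With library size alone, which moved the median log2 fold change of all rows from 0.03 to 0.45, 5891 rows were higher and 1371 lower, 44 of the 47 genes were higher (median 1.58), all 6 interferon-gamma GTPases were higher, and 44 other pathway genes were higher and 2 lower. Quantile normalization turned the median of all rows to -0.053, left 0 of the membrane and other proteins lower and 3 other pathway genes lower, and reversed Ifitm1 (-0.46). The median log2 fold change of the 2-5A synthetase family, 2.71 as reported, was 2.015 under quantile normalization and 2.21 without KO replicate 2. Leaving out each mouse in turn gave 34 to 41 genes higher and 1 lower. It gave 1 to 6 GTPases higher and 3 to 8 other pathway genes lower, and put the log2 fold change of Ifi27l2a between -0.61 (without KO replicate 2) and 0.74, negative also without WT replicate 1 (-0.15) and WT replicate 2 (-0.31), and that of Ifitm1 between -0.18 (without WT replicate 2) and 0.68. With the replicate number as a block, 38 genes were higher and 1 lower, the added call being Rsad2. Deviations of same-numbered mice from their group means had correlations of 0.07, -0.11 and -0.09, against -0.09 to 0.19 between mice with different numbers. With 3 mice per genotype these values cannot decide whether the numbers pair the mice. The cause of these shifts was not tested. With 3 mice per genotype and this depth, edgeR recovered 52 of 100 simulated 2-fold changes, so changes of that size can be missed.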
